A study of Mus musculus with 48 samples.

Results

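The visceral white fat of female C57BL6/J mice was compared between a high-fat diet (HFD) and a regular diet (RD) after 2 weeks of feeding. The members are 6 of the 48 libraries of the series, chosen by the labels alone: the 3 visceral fat libraries of females on HFD for 2 weeks (mice numbered 1, 2 and 5) and the 3 of females on RD for the same time (mice numbered 1, 2 and 4). The whole study sequenced messenger RNA from liver and visceral fat of both sexes after 2 or 12 weeks of either diet. All mice were C57BL6/J, carried no engineered allele according to the labels, and started their diet at 8 weeks of age, so that the females described here were 10 weeks old at the end. The RD mice ate standard rodent chow, and the HFD mice ate a purified diet with 45% of its calories from fat, both without restriction. Chow and the purified diet differ in more than their fat, and no low-fat purified diet was part of the design. The labels number the mice but do not say whether a library came from 1 mouse. A name such as HFD female 1 therefore stands for the library of that number. The p-values therefore measure only a spread between libraries, which was estimated over all 24 visceral fat libraries.

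White adipocytes store triglyceride that they build from dietary fatty acids or from glucose through the synthesis of new fatty acids. Synthesis of fatty acids and of cholesterol is driven by transcription factors of the SREBP family, which insulin activates and which cholesterol and polyunsaturated fatty acids restrain. Visceral fat around the female reproductive tract lies against the uterine horns, the oviducts and the ovaries, so a dissected piece can carry tissue of those organs.

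Polyadenylated RNA was sequenced from 200 ng of total RNA per library with a strand-specific kit, and the 6 libraries held between 45128030 and 74065630 counts. Levels are given as CPM, counts scaled to the total of the library after adjustment by the trimmed mean of M-values (TMM). For each gene the 3 RD values stand in the order of females 1, 2 and 4, and the 3 HFD values in the order of females 1, 2 and 5. A gene is said to have risen or fallen where edgeR's quasi-likelihood test gave a Benjamini-Hochberg adjusted p under 0.05, and errors of log2 fold changes are approximate standard errors from that test.

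The library of HFD female 1 stood apart from the other 5. It held transcripts of epithelia and of the reproductive tract at levels that no other library approached. Clca3, a member of the calcium-activated chloride channel regulator family of epithelia, was at 0.0173, 0.0604 and 0.0165 CPM on RD and at 5759, 1.63 and 1.34 CPM on HFD. Lactotransferrin (Ltf), an oestrogen-regulated secretory protein of the uterus, was at 1.04, 0.604 and 0.761 CPM on RD and at 3627, 1.92 and 1.48 CPM on HFD. For both genes HFD female 1 alone was high. All 14 genes of an epithelial marker list were above 0 in that library, with a summed level of 2347 CPM against 37.8 to 58.4 CPM in the other 5. The 14 oviduct and uterus markers summed to 5908 CPM against 92.7 to 213 CPM. Ltf and Sprr2f (1826 CPM) made up most of that sum in HFD female 1. With all 6 libraries the log2 fold changes of the 14 ran from -0.82 to 12.5, with a median of 2.93, so not every marker was high. The epithelial adhesion gene Epcam was at 1.04 CPM in HFD female 1 and at 0 in the other 5 libraries. Altogether 734 genes were at least 10 times higher in HFD female 1 than in each other library, and they took 5.01% of its counts against at most 0.0640% elsewhere.

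The same library had the lowest adipocyte signal. The 18 adipocyte markers summed to 13169 CPM in HFD female 1 and to between 37771 and 49930 CPM in the other 5. Its 11 markers of mural cells and smooth muscle summed to 5743 CPM, against 1010.3 to 2262 CPM. In bulk tissue, fewer cells of a type and less RNA per cell cannot be told apart. Markers of ovary summed to 104.9 CPM in this library against 48.8 to 88.3 CPM, those of mammary gland to 32.1 against 35.1 to 77.0 CPM, those of exocrine pancreas to 1.38 against 0.675 to 1.23 CPM, and those of intestine to 2.29 against 1.95 to 2.98 CPM. Skeletal muscle markers were uneven within both diets, with sums of 15.2, 100.2 and 167 CPM on RD and 40.3, 18.3 and 78.2 CPM on HFD. Their part in the other results was not tested. Because adipocyte genes are low and reproductive tract genes are high in 1 of 3 HFD libraries, the results on genes and lists that follow are given with all 6 libraries and, for the 2-week female comparison, also without HFD female 1.

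**Figure D1:**
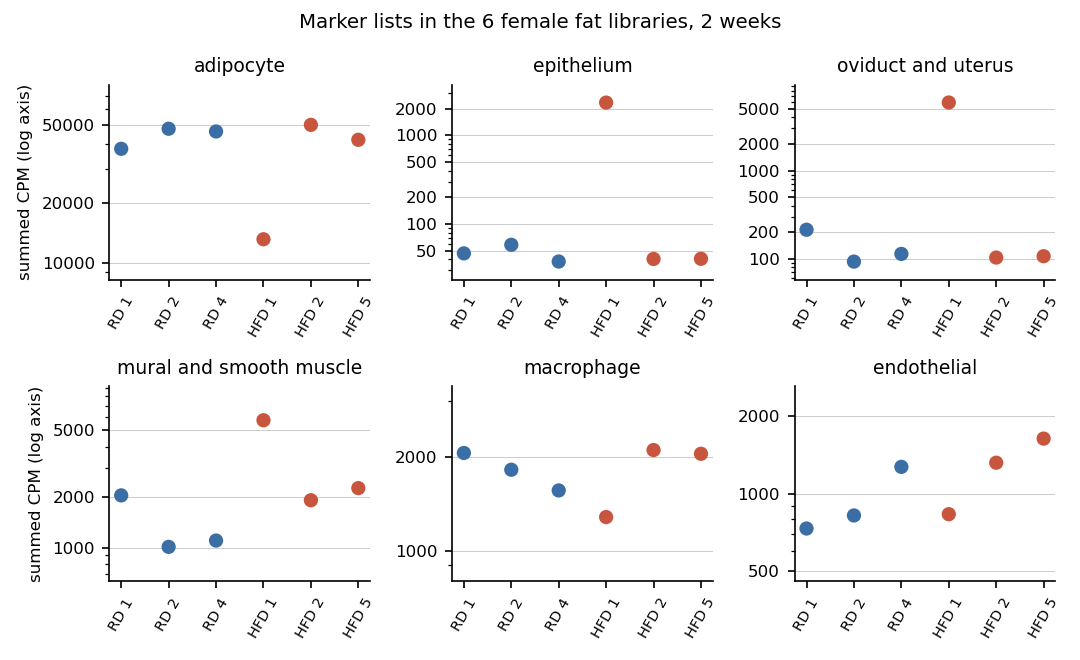
Summed level of 6 marker lists (CPM, log axis) in each of the 6 libraries, with RD and HFD females marked by colour and each library by its number. HFD female 1 sits far above the others for epithelium (2347 CPM) and for oviduct and uterus (5908 CPM) and below them for adipocytes (13169 CPM), where the other 5 lie between 37.8 and 58.4, between 92.7 and 213 and between 37771 and 49930 CPM.

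With all 6 libraries, 18325 of 30055 gene symbols had enough counts to be tested, and 43 of them differed between the diets. Of these, 18 rose on HFD (0.0982% of those tested) and 25 fell (0.136%). The genes that fell included Insig1 and Elovl5 of sterol and fatty acid metabolism, and those that rose included Cpt1a, Ppargc1a and Dio2 of fatty acid oxidation and thermogenesis and Jun, Dusp8 and Dusp16 of stress kinase signalling. In all 43 genes the 3 HFD values lay on one side of the 3 RD values, an order that 9.63% of tested genes showed upward and 12.5% downward. Without HFD female 1, 11 genes were called (0.0589%), 7 that rose (0.0375%) and 4 that fell (0.0214%). All 43 genes kept their sign in that fit and 42 had an unadjusted p under 0.05. With no overlap in any of the 43, the sign could hardly change. The genes were also chosen on libraries that this fit shares, so neither count is independent support. Only Insig1, Elovl5, Scly, Rmnd1, Dusp8 and Dusp16 still passed the adjusted threshold. The spread was estimated from all 24 visceral fat libraries, and with these 6 libraries alone no gene passed, while 2269 had an unadjusted p under 0.05.

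A few of the genes that rose owed their place to HFD female 1. Clca3, Prap1, Padi1 and Dlx5 were at 5759, 2455, 1158 and 76.9 CPM in that library and at no more than 1.63 CPM in any other. Without that library their log2 fold changes were 5.51, 4.86, 0.61 and 2.20, with adjusted p of 0.0713, 0.259, 0.732 and 0.500. Slc16a14, a member of the monocarboxylate transporter family, was at 0.501, 1.07 and 0.529 CPM on RD and at 75.3, 1.58 and 2.55 CPM on HFD, and its log2 fold change moved from 5.24 ± 1.07 to 1.56 ± 0.50 (adjusted p = 0.385) without the library. The part of the reproductive tract transcripts in the other results was not tested beyond leaving the library out.

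Genes of cholesterol synthesis were lower on HFD as a group, and the one that passed the test was Insig1. Insig1 encodes the endoplasmic reticulum protein that holds the SREBP escort in place when sterols are high, and it is itself a target of SREBP (chr5:28071363-28078662, plus strand, GRCm38). Its level was 385, 406 and 410.4 CPM on RD and 63.4, 138 and 140.2 CPM on HFD. Every HFD library was well below every RD library, and HFD female 1 was the lowest. The log2 fold change was -1.81 ± 0.29 (adjusted p = 0.0268), and -1.53 ± 0.27 without HFD female 1 (adjusted p = 0.0434). The call was lost without RD female 2 (adjusted p = 0.0785) or RD female 4 (adjusted p = 0.106), with log2 fold changes of -1.80 and -1.81.

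Of the 25 cholesterol synthesis genes, 1 fell and none rose, with a median log2 fold change of -1.35 against 0.04 over all tested genes. In 17 of the 25 the HFD values all lay below the RD values, against 12.5% of tested genes, and in 1 they all lay above. Without HFD female 1 the median was -1.03, against -0.02 over all genes, and the same number of genes, 17, lay below (17.7% of all tested genes do so with the 2 remaining HFD libraries). Acat2, which makes acetoacetyl-CoA in the cytosol for the first step of the pathway, was at 303, 208 and 461 CPM on RD and at 25.4, 84.0 and 97.1 CPM on HFD, with a log2 difference of -2.23 ± 0.53 (adjusted p = 0.0692; -1.84 ± 0.53, adjusted p = 0.278 without HFD female 1). Lanosterol synthase (Lss) was at 113, 83.5 and 239 CPM on RD and at 17.0, 43.1 and 52.1 CPM on HFD (-1.96 ± 0.48, adjusted p = 0.0734; -1.61 ± 0.50, adjusted p = 0.338 without that library). Neither gene's groups overlapped. Hmgcs1, a synthase early in the pathway, had another order, at 215, 153 and 245 CPM on RD and at 67.8, 346 and 254 CPM on HFD. Its log2 difference was 0.13 ± 0.43 with all libraries and 0.55 ± 0.35 without HFD female 1.

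Genes of fatty acid and triglyceride synthesis were also lower on HFD as a group, with 1 called gene, Elovl5. Elovl5 elongates polyunsaturated fatty acids (chr9:77917364-77984519, plus strand). It was at 229, 323 and 377 CPM on RD and at 177, 125 and 122 CPM on HFD. The groups did not overlap, and here HFD female 1 was the highest of its group. The log2 fold change was -1.13 ± 0.19 (adjusted p = 0.0268), and -1.34 ± 0.19 without HFD female 1 (adjusted p = 0.00578). The call was lost without RD female 2 (-1.10, adjusted p = 0.0921) or RD female 4 (-0.98, adjusted p = 0.179).

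Of the 26 genes on that list, 1 fell and none rose, with a median log2 fold change of -1.24 with all libraries and -1.08 without HFD female 1. The HFD values lay wholly below the RD values in 18 of the 26, against 12.5% of tested genes. Without that library the number was also 18, against 17.7% of tested genes. In none of the 26 did they lie wholly above, with or without it. The list summed to 91025, 84574 and 164130.0 CPM on RD and to 10756, 52846 and 50797 CPM on HFD. Scd1 alone, given below, made up most of the sum in each of the 6 libraries. Elovl6, which elongates palmitate to stearate, was at 2017, 1547 and 3593 CPM on RD and at 43.4, 226 and 406 CPM on HFD. Its log2 difference was -3.40 ± 0.80 (adjusted p = 0.0692) and -2.92 ± 0.81 (adjusted p = 0.258) without HFD female 1. Fatty acid synthase (Fasn) was at 4913, 2724 and 5919.7 CPM on RD and at 223, 855 and 1173 CPM on HFD (-2.59 ± 0.63, adjusted p = 0.0734; -2.16 ± 0.63, adjusted p = 0.306 without HFD female 1). The mitochondrial citrate carrier Slc25a1, which exports the carbon for synthesis, was at 1277, 1229 and 2257 CPM on RD and at 111, 403 and 459 CPM on HFD (-2.29 ± 0.50, adjusted p = 0.0594; -1.88 ± 0.47, adjusted p = 0.187 without it). In each of these 3 genes HFD female 1 was the lowest library, and HFD females 2 and 5 were below all RD females. Malic enzyme (Me1), a source of NADPH, had a log2 difference of -2.62 ± 0.64, and ATP citrate lyase (Acly) one of -2.44 ± 0.81, with adjusted p of 0.0734 and 0.112. Without HFD female 1 these were -2.15 ± 0.60 and -1.93 ± 0.78 (adjusted p = 0.263 and 0.528). The stearoyl-CoA desaturase Scd1 was at 55418, 56930.1 and 105273 CPM on RD and at 7550.2, 40575 and 33901 CPM on HFD (-1.41 ± 0.57, adjusted p = 0.164; -0.97 ± 0.53, adjusted p = 0.613 without HFD female 1). Srebf1, which encodes the SREBP of fatty acid synthesis, had a log2 difference of -0.99 ± 0.43 (adjusted p = 0.185; -0.63 ± 0.41, adjusted p = 0.652 without it).

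The tests disagreed on how many of these genes to call. DESeq2 called 13 of the 25 cholesterol genes and 14 of the 26 fatty acid genes as lower, against 4.01% of the genes it tested. The limma voom fit with a quality weight for each library, in which HFD female 1 had a weight of 0.147, called 10 and 11 of them as lower, against 3.49%. Neither tool called a gene of either list as higher. The summed adipocyte markers were low in HFD female 1 as these lists were, and the values without that library are those of 2 HFD libraries against 3.

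**Figure D2:**
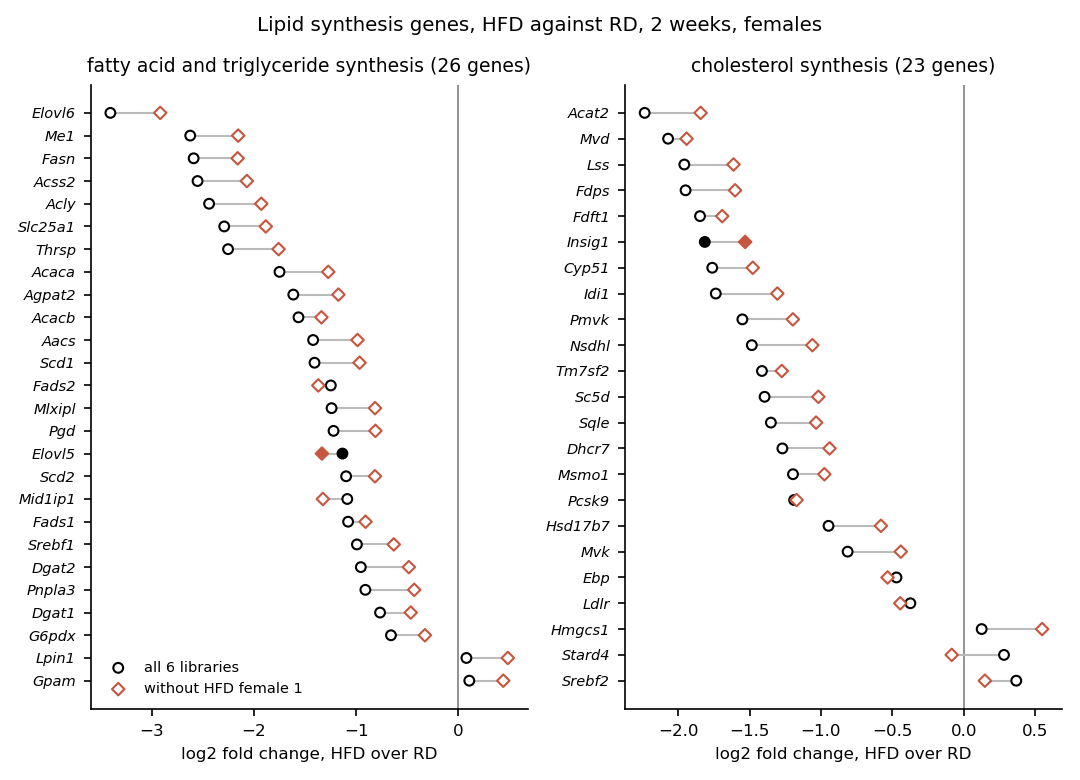
Log2 fold change (HFD against RD) of the 26 fatty acid and triglyceride synthesis genes and 23 of the 25 cholesterol synthesis genes, as circles with all 6 libraries and as diamonds without HFD female 1, with filled marks for an adjusted p under 0.05. Most marks lie left of 0 and most diamonds lie nearer to it than their circles, with Elovl5 and Hmgcs1 among the exceptions, and the filled marks are those of Elovl5 and Insig1.

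Other enzymes of lipid handling were among the genes that fell. Tecr, the reductase that completes each round of very long chain fatty acid elongation, was at 322, 346 and 499.5 CPM on RD and at 86.0, 175 and 162 CPM on HFD (log2 fold change -1.46 ± 0.30, adjusted p = 0.0462). Echdc1, a decarboxylase that removes ethylmalonyl-CoA formed as a by-product of fatty acid synthesis, was at 509, 701 and 828 CPM on RD and at 87.5, 309 and 260.1 CPM on HFD (-1.63 ± 0.33, adjusted p = 0.0462). Lrpap1, a chaperone of receptors of the LDL receptor family, was at 484, 376 and 637 CPM on RD and at 115, 227 and 182 CPM on HFD (-1.52 ± 0.31, adjusted p = 0.0462). In all 3 genes the groups were apart, and HFD female 1 was the lowest library. Pcyt2 of phosphatidylethanolamine synthesis (-1.02 ± 0.21) and Rdh11, a retinol dehydrogenase (-1.44 ± 0.29), fell as well. Without HFD female 1 the log2 fold changes of Tecr, Echdc1 and Lrpap1 were -1.21, -1.26 and -1.29, with adjusted p of 0.169, 0.0576 and 0.187, and those of Pcyt2 and Rdh11 were -0.85 and -1.39, with adjusted p of 0.185 and 0.173. Leaving out any 1 RD library also lost these 3 calls, with adjusted p from 0.068 to 0.223.

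Scly and Rmnd1 fell by less but with a tighter spread. Scly, the lyase that recycles selenium from selenocysteine, was at 38.8, 36.3 and 36.5 CPM on RD and at 19.5, 18.3 and 19.3 CPM on HFD (chr1:91298338-91321075, plus strand). The 3 values within each diet nearly coincided, HFD female 1 included. Its log2 fold change was -0.97 ± 0.13 (adjusted p = 0.00223), and it stayed between -0.94 and -0.99 when any 1 of the 6 libraries was left out, with adjusted p from 0.00578 to 0.033. Rmnd1, which is needed for translation in mitochondria, was at 45.1, 44.2 and 51.5 CPM on RD and at 34.1, 26.3 and 24.5 CPM on HFD. Its log2 fold change was -0.73 ± 0.15 (adjusted p = 0.0462) and -0.89 ± 0.15 without HFD female 1 (adjusted p = 0.0312), and the call was lost without any 1 of the RD libraries (adjusted p from 0.0969 to 0.223). Glutaredoxin (Glrx), which reduces protein thiols joined to glutathione, was at 46.1, 40.8 and 41.7 CPM on RD and at 17.8, 14.8 and 14.0 CPM on HFD, with no overlap. It fell by 1.46 ± 0.26 on the log2 scale (adjusted p = 0.0318; 0.0576 without HFD female 1, and 0.073 to 0.177 without 1 RD library).

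Angpt1, a ligand of the endothelial receptor Tie2, fell from 24.5, 40.2 and 33.5 CPM on RD to 5.70, 12.2 and 13.1 CPM on HFD. The groups were apart, and the log2 fold change was -1.66 ± 0.32 (adjusted p = 0.0462) and -1.37 ± 0.31 without HFD female 1 (adjusted p = 0.131). The remaining genes named among those that fell were Sugct, a mitochondrial CoA transferase (-1.57 ± 0.29), Oscp1 (-1.66 ± 0.33), the small GTPase Rhof (-1.45 ± 0.29) and the galactosyltransferase B3galt1 (-1.44 ± 0.28). With HFD female 1 left out these 4 were at -1.29, -1.38, -1.29 and -1.14. Mr1, which presents vitamin metabolites to T cells, Nmnat3 of NAD synthesis, Pmm1 of mannose metabolism, glycogenin (Gyg), Gm2a, Gucd1, Tmem53, Nudcd3, Fam210b and Irak1bp1 complete the 25, and these were named after their values were seen. Of Angpt1, Sugct, Oscp1, Rhof and B3galt1, none passed without HFD female 1, without RD female 2 or without RD female 4 (adjusted p from 0.0706 to 0.223), and Sugct alone passed without RD female 1.

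Genes that govern the use of fatty acids and of heat production were among those that rose. Cpt1a, the enzyme that commits long-chain fatty acids to entry into mitochondria (chr19:3322334-3385733, plus strand), was at 57.2, 58.7 and 71.6 CPM on RD and at 141, 125 and 113 CPM on HFD. Every HFD library was above every RD library. The log2 fold change was 1.02 ± 0.17 (adjusted p = 0.0268), and 0.93 ± 0.18 without HFD female 1 (adjusted p = 0.0576). Without 1 RD library it lay between 0.96 and 1.12 (adjusted p from 0.0707 to 0.0921). Among the 20 genes of fatty acid oxidation and PPAR alpha targets, Cpt1a was the 1 that rose and none fell, with a median log2 fold change of 0.01, and 0.23 without HFD female 1. Cpt1b, the muscle and brown fat form, was at 2.33, 24.3 and 13.1 CPM on RD and at 34.1, 26.4 and 60.9 CPM on HFD (1.61 ± 0.55, adjusted p = 0.117; 1.72 ± 0.60, adjusted p = 0.425 without HFD female 1). Skeletal muscle markers, given above, also varied among these libraries. Inside the mitochondrion the beta-oxidation enzymes Acadm, Acadl and Acadvl had log2 differences of -0.02, 0.00 and -0.01, which were 0.27, 0.23 and 0.23 without HFD female 1.

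Ppargc1a encodes the coactivator PGC-1 alpha, which drives mitochondrial and thermogenic gene programmes (chr5:51454250-51567726, minus strand). It was at 4.42, 12.0 and 5.61 CPM on RD and at 40.8, 19.3 and 77.9 CPM on HFD. The lowest HFD library, female 2, was above the highest RD library, female 2. The log2 fold change was 2.65 ± 0.49 (adjusted p = 0.0424), and 2.73 ± 0.53 without HFD female 1 (adjusted p = 0.0576). Dio2, the deiodinase that makes active thyroid hormone within the cell and is induced by cyclic AMP in brown fat (chr12:90724552-90738438, minus strand), was at 4.68, 12.8 and 3.80 CPM on RD and at 108, 24 and 64.3 CPM on HFD. HFD female 2 was again nearest to RD, and HFD female 1 was the highest, where HFD female 5 was for Ppargc1a. Dio2 rose by a log2 fold change of 3.20 ± 0.60 (adjusted p = 0.0445), which was 2.63 ± 0.60 without HFD female 1 (adjusted p = 0.129). Without 1 RD library both genes missed the threshold, with adjusted p from 0.0785 to 0.212.

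These were 2 of the 12 thermogenic adipocyte genes on the list, and none fell. The median log2 fold change of the 12 was 0.36, and 0.38 without HFD female 1. Ucp1, the uncoupling protein that defines brown and beige adipocytes, was at 0.294, 131 and 35.6 CPM on RD and at 188, 93.7 and 401 CPM on HFD. The groups overlapped and RD female 1 was near 0 (2.04 ± 1.29, adjusted p = 0.377; 2.16 ± 1.39, adjusted p = 0.650 without HFD female 1). Cox7a1 had a log2 difference of 1.04 ± 0.59 and Prdm16, a determinant of brown fat identity, one of 0.41, while Cidea (0.24 ± 0.75), Cox8b (-0.23) and Ebf2 (-0.08) lay near 0 within their errors. With HFD female 1 left out these 5 were at 1.26, 0.36, 0.41, 0.00 and 0.31.

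The MAP kinase phosphatases Dusp8 and Dusp16 and the transcription factor Jun rose. Dusp8 and Dusp16 both remove phosphate from the stress-activated kinases JNK and p38, and Jun is the AP-1 subunit that JNK phosphorylates. Dusp8 was at 5.43, 3.89 and 5.31 CPM on RD and at 16.1, 18.2 and 21.8 CPM on HFD (chr7:142079490-142095843, minus strand). All 3 HFD libraries were far above the RD libraries, and HFD female 1 was the lowest of them. The log2 fold change was 1.94 ± 0.25 (adjusted p = 0.00223). Leaving out any 1 of the 6 libraries left it between 1.80 and 2.03, with adjusted p from 0.0045 to 0.0416. Dusp16 was at 21.9, 22 and 20.7 CPM on RD and at 62.7, 38.8 and 49.1 CPM on HFD (chr6:134715468-134792625, minus strand). The RD values hardly differed and lay below all HFD values (1.22 ± 0.16, adjusted p = 0.00223; 1.02 ± 0.15 without HFD female 1, adjusted p = 0.00578). Dusp16 was described after its values were seen.

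Jun was at 47.9, 46.5 and 44.6 CPM on RD and at 129, 111 and 101 CPM on HFD (chr4:95049034-95052222, minus strand). The groups were far apart relative to their spread. Its log2 fold change was 1.29 ± 0.22 (adjusted p = 0.0268), and 1.19 ± 0.23 without HFD female 1 (adjusted p = 0.0593), with adjusted p from 0.068 to 0.187 without 1 RD library. Jun was the 1 of 14 immediate early and heat shock genes that rose, none fell, and the median log2 fold change of the list was 0.74, and 0.71 without HFD female 1. Fos, the partner of Jun in AP-1, was at 12.9, 39.1 and 12.0 CPM on RD and at 24.9, 52.6 and 45.7 CPM on HFD (0.95 ± 0.63, adjusted p = 0.402; 1.20 ± 0.69, adjusted p = 0.623 without HFD female 1), and the groups overlapped. The inducible heat shock protein gene Hspa1a was at 8.88, 9.56 and 10.1 CPM on RD and at 31.8, 21.9 and 24.8 CPM on HFD (1.46 ± 0.46, adjusted p = 0.104; 1.29 ± 0.51, adjusted p = 0.503 without it). Hspa1a and Hspa1b are nearly identical copies, so the split of counts between them is uncertain.

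Dio2 and Dusp8 also share a full cyclic AMP response element in their promoters, and their sequences are printed for that reason. Of the 43 called genes, 37 had a promoter of 250 bases before the start in RefSeq (GRCm38.p6). Where a gene had more than 1 promoter entry, only the first was counted. The palindrome TGACGTCA, searched on both strands, was in 2 of these 37 and in 1.624% of 27025 promoters of the same length. In the lines below, capitals mark the matches, each sequence runs 5′ to 3′ on the gene's minus strand, and the last base lies just before the RefSeq start. The Dio2 window is chr12:90739039-90739288, upstream of the gene's span given above, with the match from -95 to -88. The Dusp8 window is chr7:142095285-142095534, inside the longer span given above, with matches from -107 to -100 and from -63 to -56.
Dio2: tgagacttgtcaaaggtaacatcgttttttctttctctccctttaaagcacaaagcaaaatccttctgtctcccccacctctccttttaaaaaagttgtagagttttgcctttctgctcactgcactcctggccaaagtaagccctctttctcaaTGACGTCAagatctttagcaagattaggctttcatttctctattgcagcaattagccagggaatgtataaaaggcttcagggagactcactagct
Dusp8: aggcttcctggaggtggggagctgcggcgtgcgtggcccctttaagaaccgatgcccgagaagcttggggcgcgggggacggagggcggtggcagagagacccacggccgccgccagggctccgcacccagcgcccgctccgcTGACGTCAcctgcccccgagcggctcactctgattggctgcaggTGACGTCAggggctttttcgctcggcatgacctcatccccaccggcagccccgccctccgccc
The shorter TGACGT, which is contained in the palindrome, was in 5 of the 37 (13.51%), namely Insig1, Ppargc1a, Dusp8, Tecr and Dio2, and in 6.561% of all promoters. The AP-1 element TGAGTCA was in 1 of the 37, Glrx, and in 4.429% of all promoters. The sterol element core TCACNCCAC was in none of the 37 first entries, in 1 of 17 cholesterol synthesis promoters (Hmgcs1) and in 1.036% of all promoters. The second of 2 entries of Echdc1, which was not counted, held a match on the reverse strand from -53 to -45. A match describes the letters of this window and shows no binding.

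**Figure D3:**
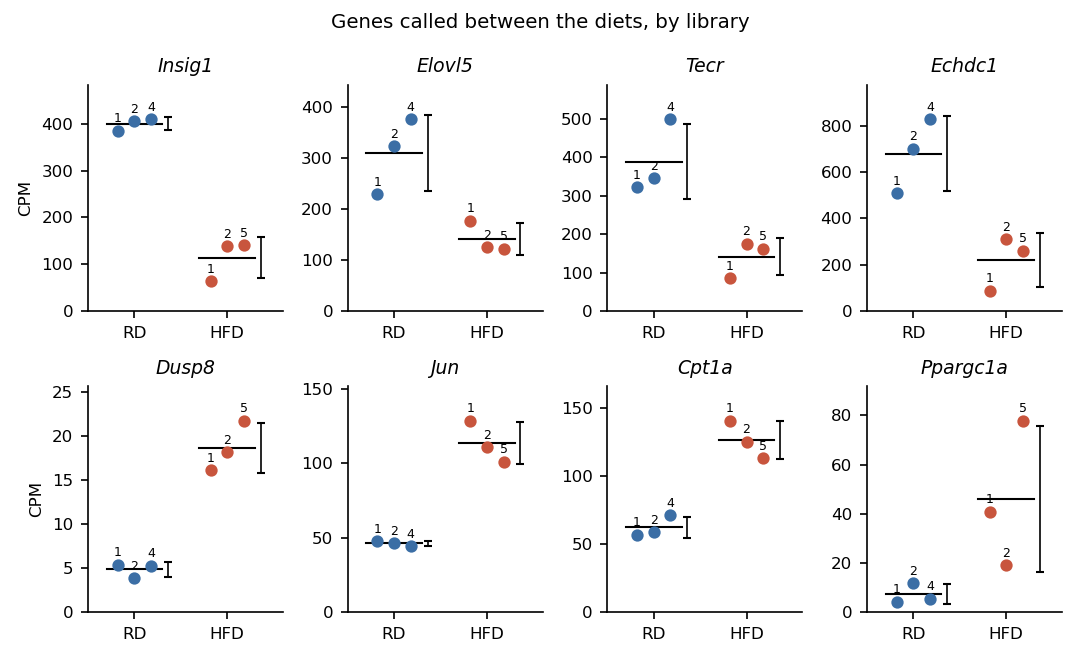
CPM of 8 called genes in each of the 3 RD and 3 HFD females, with the mean as a line and the SD as a bar. Insig1, Elovl5, Tecr and Echdc1 lie lower on HFD, and Dusp8, Jun, Cpt1a and Ppargc1a higher, with no overlap between the diets in any panel.

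The other genes that rose included Ret, Nedd9 and Tiam1. Ret, the receptor kinase for ligands of the GDNF family, was at 4.75, 4.85 and 7.03 CPM on RD and at 19.99, 23.8 and 20.2 CPM on HFD. The HFD values lay close together and well above RD, and the log2 fold change was 1.94 ± 0.35 (adjusted p = 0.0366; 1.98 ± 0.38, adjusted p = 0.0576 without HFD female 1). Nedd9, a scaffold of focal adhesions, was at 21, 20.6 and 26.0 CPM on RD and at 125, 51.8 and 50.1 CPM on HFD (1.74 ± 0.30, adjusted p = 0.0268; 1.17 ± 0.23, adjusted p = 0.0576 without HFD female 1). Tiam1, an exchange factor that activates the GTPase Rac, was at 7.86, 6.93 and 8.50 CPM on RD and at 34.6, 14.8 and 19.9 CPM on HFD (1.57 ± 0.32, adjusted p = 0.0462; 1.16 ± 0.30, adjusted p = 0.217 without HFD female 1). In Nedd9 and Tiam1 HFD female 1 was the highest library, and the other HFD libraries were still above all RD libraries.

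Gramd1b, which moves cholesterol from the plasma membrane to the endoplasmic reticulum, was at 16.8, 19.9 and 19.9 CPM on RD and at 56.4, 31.2 and 49.5 CPM on HFD (1.28 ± 0.25, adjusted p = 0.0462; 1.09 ± 0.26, adjusted p = 0.167 without HFD female 1). Fam20c, the kinase of secreted proteins, was at 14.1, 10.7 and 21.7 CPM on RD and at 206, 50.3 and 52.1 CPM on HFD. HFD female 1 was far above the rest, and the log2 fold change was 2.73 ± 0.55 (adjusted p = 0.0462) with it and 1.72 ± 0.45 (adjusted p = 0.217) without it. The unnamed transcripts D430019H16Rik (2.53 ± 0.45, adjusted p = 0.0318; 2.42 ± 0.48, adjusted p = 0.0616 without HFD female 1) and Gm7694 (1.27 ± 0.25, adjusted p = 0.0462; 1.03 ± 0.25, adjusted p = 0.168) complete the 18. For Ret, Nedd9, Tiam1, Gramd1b and Fam20c the adjusted p lay between 0.084 and 0.212 when 1 RD library was left out.

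Genes of adipocyte expansion, known to rise when fat cells enlarge, were higher in HFD females 2 and 5 but not in HFD female 1. Mest, an imprinted gene used as a marker of fat mass expansion (chr6:30723547-30748465, plus strand), was at 22.8, 14.3 and 16.6 CPM on RD and at 17.0, 127 and 55.2 CPM on HFD. HFD females 2 and 5 were above all RD females, and HFD female 1 was among them. The log2 difference was 1.89 ± 0.45 with all libraries (adjusted p = 0.0713), and Mest rose without HFD female 1 (2.33 ± 0.33, adjusted p = 0.00578). Leptin (Lep), the hormone that reports fat mass, was at 399, 169 and 195 CPM on RD and at 99.1, 757 and 739 CPM on HFD (1.06 ± 0.48, adjusted p = 0.209; 1.55 ± 0.32, adjusted p = 0.0706 without HFD female 1). Npr3, the clearance receptor of natriuretic peptides, was at 201, 161 and 233 CPM on RD and at 115, 589 and 576 CPM on HFD (1.10 ± 0.44, adjusted p = 0.157; 1.55 ± 0.32, adjusted p = 0.0713 without HFD female 1). The pattern of the 3 genes was alike, with HFD female 1 at or below the RD levels.

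None of the 8 genes on that list passed with all libraries, and Mest alone passed without HFD female 1. All 8 were higher in HFD females 2 and 5 than in any RD female, against 16.3% of tested genes, and the median log2 fold change was 1.23 with all libraries and 1.62 without HFD female 1. Klf14, a transcription factor gene imprinted beside Mest, was at 0.726, 0.544 and 0.546 CPM on RD and at 0.503, 3.18 and 1.74 CPM on HFD (1.58 ± 0.48, adjusted p = 0.0975; 2.01 ± 0.39, adjusted p = 0.0576 without HFD female 1). Sfrp5, a secreted Wnt inhibitor, was at 4.27, 2.01 and 1.47 CPM on RD and at 3.17, 4.78 and 12.0 CPM on HFD (1.36 ± 0.50, adjusted p = 0.135; 1.69 ± 0.51, adjusted p = 0.332 without it). DESeq2 called 3 of the 8 as higher, against 5.27% of the genes it tested, and limma voom with library weights called 5, against 2.02%. The adipocyte markers of HFD female 1 were low beside these genes, with 13169 CPM in sum.

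**Figure D4:**
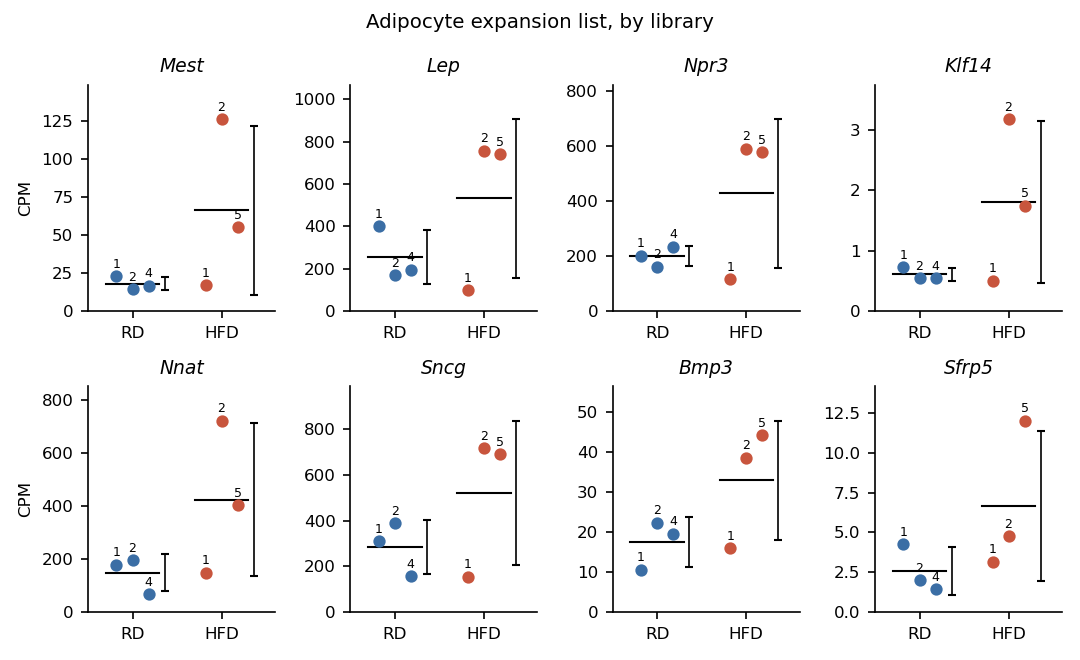
CPM of the 8 adipocyte expansion genes in each RD and HFD female, with the mean as a line and the SD as a bar. In each panel HFD females 2 and 5 lie above the 3 RD females and HFD female 1 lies among or below them.

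Besides Mest, 4 other genes passed without HFD female 1 but not with all 6 libraries. Emp1, a small membrane protein, was at 113, 85.6 and 88.2 CPM on RD and at 126, 581 and 375 CPM on HFD (1.91 ± 0.40, adjusted p = 0.0506; 2.31 ± 0.31, adjusted p = 0.0045 without HFD female 1). The groups did not overlap, but HFD female 1 was close to RD. Emp1 also passed without HFD female 2 (adjusted p = 0.0406) or HFD female 5 (adjusted p = 0.0324). Slc6a13, a transporter of GABA and taurine, was at 30.7, 32.9 and 24.6 CPM on RD and at 10.4, 71.3 and 74.1 CPM on HFD (0.82 ± 0.42, adjusted p = 0.269; 1.30 ± 0.21, adjusted p = 0.0264). Prr32 was at 4.65, 5.54 and 2.71 CPM on RD and at 2.61, 19.2 and 21.2 CPM on HFD (1.74 ± 0.48, adjusted p = 0.0867; 2.22 ± 0.29, adjusted p = 0.0045). HFD female 1 was below RD for these genes. The remaining one was Duoxa1 (0.97 ± 0.36, adjusted p = 0.137; 1.37 ± 0.24, adjusted p = 0.043).

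Matrix genes had higher levels on HFD but none passed the test. The 16 collagen genes had a median log2 fold change of 0.84, and 0.93 without HFD female 1. In 8 of the 16 all HFD values were above all RD values, against 9.63% of tested genes, and in 13 this held for HFD females 2 and 5, against 16.3%. Col6a1, a chain of the microfibrillar collagen around adipocytes, was at 355, 309 and 339 CPM on RD and at 726, 939 and 763 CPM on HFD. The groups were apart (1.28 ± 0.33, adjusted p = 0.0825; 1.34 ± 0.36, adjusted p = 0.245 without HFD female 1). Its partner chain Col6a2 had a log2 difference of 1.16 ± 0.34 (adjusted p = 0.0935; 1.26 ± 0.38, adjusted p = 0.318). The 16 genes of matrix remodelling had a median of 0.72, and 0.65 without HFD female 1, with 5 above RD in all HFD libraries. DESeq2 called 5 collagen genes and 4 remodelling genes as higher, against 5.27% of the genes it tested, and limma voom with library weights 7 and 3, against 2.02%.

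Among adipokines, none of the 15 tested genes passed. Their log2 fold changes ran from -1.42 to 3.89, with a median of -0.05, and 0.22 without HFD female 1. DESeq2 called 2 as higher and 2 as lower, against 5.27% and 4.01% of the genes it tested. The limma voom fit with library weights called 3 as higher, against 2.02%, and 0 as lower, against 3.49%. The genes described next are on the lower side, whereas Lep of this list was described above. Adipsin (Cfd), a complement protease secreted by adipocytes, was at 6571, 9374 and 6569 CPM on RD and at 1228, 3698 and 3514 CPM on HFD (-1.42 ± 0.43, adjusted p = 0.0987; -1.06 ± 0.42, adjusted p = 0.508 without HFD female 1). Adiponectin (Adipoq) was at 3359, 4012 and 3339 CPM on RD and at 879.8, 2906 and 3163 CPM on HFD. HFD females 2 and 5 were only just below RD (-0.62 ± 0.32 with all libraries and -0.24 ± 0.22 without HFD female 1).

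Mitochondrial genes were slightly lower and none passed. The 20 oxidative phosphorylation genes had a median log2 fold change of -0.66, which was -0.39 without HFD female 1, and 15 were below RD in all HFD libraries, against 12.5% of tested genes. With HFD females 2 and 5 alone 15 were below as well, against 17.7%. Cox5a, a subunit of cytochrome oxidase, was at 159.8, 154 and 174 CPM on RD and at 84.3, 110.2 and 114 CPM on HFD (-0.66 ± 0.22, adjusted p = 0.112; -0.54 ± 0.24, adjusted p = 0.557 without HFD female 1). The 20 genes of branched-chain amino acid breakdown had medians of -0.44 and -0.17. Of the 16 genes of insulin signalling and glucose use none passed, with medians of 0.14 and 0.23. In 4 of the 16 all HFD values lay below all RD values, against 12.5% of tested genes, and in 0 they lay above. With HFD females 2 and 5 alone 4 lay below, against 17.7%, and 5 above, against 16.3%. The genes described next are among those that lay below. Pyruvate carboxylase (Pcx), which feeds citrate export, was at 1588, 1281 and 3289 CPM on RD and at 147, 715 and 860.5 CPM on HFD (-1.84 ± 0.60, adjusted p = 0.11; -1.38 ± 0.56, adjusted p = 0.528 without HFD female 1). The glucose transporter Slc2a4 was at 299, 298 and 444 CPM on RD and at 59.7, 192 and 239 CPM on HFD (-1.08 ± 0.38, adjusted p = 0.127; -0.69 ± 0.32, adjusted p = 0.577). In both genes the diets did not overlap and HFD female 1 was the lowest. Igf1 was at 473, 458 and 415 CPM on RD and at 89.4, 259 and 241 CPM on HFD (-1.19 ± 0.30, adjusted p = 0.0741; -0.85 ± 0.22, adjusted p = 0.218 without HFD female 1).

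No list of immune or stromal cell markers had a gene that passed. Medians of the log2 fold changes with all libraries and without HFD female 1 were 0.15 and 0.23 for 16 macrophage genes, and 0.17 and 0.09 for 13 genes of lipid-associated macrophages. For 16 T and NK cell genes they were -0.10 and -0.06, and for 10 MHC class II genes -0.30 and -0.16. Itgam, the macrophage and granulocyte integrin, was at 36.5, 33.7 and 31.2 CPM on RD and at 122, 55.9 and 54.4 CPM on HFD, with no overlap (1.20 ± 0.36, adjusted p = 0.0975; 0.70 ± 0.35, adjusted p = 0.594 without HFD female 1). The macrophage gene Cd68 was at 35.1, 25.7 and 25.8 CPM on RD and at 102, 45.5 and 33.5 CPM on HFD (1.07 ± 0.34 and 0.44 ± 0.29). Itgam was the 1 of the 16 macrophage genes with all HFD values above all RD values, against 9.63% of tested genes. In sum the 16 were at 2054, 1817 and 1560 CPM on RD and at 1284, 2099 and 2042 CPM on HFD. Those sums overlapped, and HFD female 1 had the lowest, although it was the highest library for Itgam and Cd68. The 20 interferon response genes had a median of 0.80 with HFD female 1 and 0.14 without it. The 15 progenitor genes had medians of 0.03 and 0.07, and the 13 endothelial genes medians of 0.36 and 0.58, with 10 of these 13 higher in HFD females 2 and 5 than in any RD female, against 16.3% of tested genes, and 1 of the 13 higher in all 3 HFD females, against 9.63%.

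Males of the same age on the same diets were used to ask whether the response differed by sex. No gene passed for the difference between the female and the male response (0.0% of 18325), with 1246 at an unadjusted p under 0.05, 84 called by DESeq2 and 1 by limma voom with library weights. In the males no gene passed for the diet itself (0.0%), with 1158 higher and 864 lower at an unadjusted p under 0.05. Insig1 in males was at 239, 242 and 175 CPM on RD and at 101, 74.6 and 81.2 CPM on HFD (-1.35 ± 0.29, adjusted p = 0.255), and its female minus male difference was -0.46 ± 0.40 (adjusted p = 0.917). Dusp8 in males was at 5.18, 8.20 and 10.5 CPM on RD and at 13.9, 15.3 and 17.5 CPM on HFD (0.97 ± 0.24, adjusted p = 0.297). Both genes were ordered in males as in females, with no overlap between diets. Dio2 in males was at 0.724, 1.14 and 1.06 CPM on RD and at 0.655, 0.670 and 0.477 CPM on HFD. Ppargc1a in males was at 8.17, 6.50 and 5.17 CPM on RD and at 4.58, 4.87 and 9.25 CPM on HFD, with overlap. Their female minus male differences were 3.90 ± 0.83 and 2.73 ± 0.67 (adjusted p = 0.654 for both). The median log2 fold change in males was -0.82 for the fatty acid synthesis list and -0.78 for the cholesterol list.

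Females fed for 12 weeks were a separate cohort according to the study's design text, so weeks on the diet, age and cohort cannot be told apart. Markers of other organs also differed between the diets at 12 weeks. Of 14 tested ovary markers 3 fell (0.775% of tested genes did), with a median log2 fold change of -3.06. The 8 tested markers of exocrine pancreas had a median of 4.27, and none passed. The part of such transcripts in the 12-week values was not tested. The diet response differed between 2 and 12 weeks in 13 genes (0.0709%), more positive at 2 weeks in 4 and more negative in 9. With HFD female 1 left out 15 genes passed, all of the 13 among them. With the 12 female libraries alone none passed, and 2035 had an unadjusted p under 0.05. The difference was in opposite directions for the 2 thermogenic and the 2 expansion genes that passed. Dio2 and Ppargc1a rose at 2 weeks and fell at 12 weeks, whereas Mest and Sfrp5 were higher by far more at 12 weeks. The median difference was 0.86 over all 12 thermogenic genes (lowest -0.52) and -1.58 over all 8 expansion genes (highest 0.49).

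Dio2 in the 12-week females was at 20.2, 7.74 and 17.8 CPM on RD and at 1.73, 5.40 and 1.13 CPM on HFD (-2.47 ± 0.59, adjusted p = 0.0327). Ppargc1a was at 11.7, 9.13 and 16.1 CPM on RD and at 2.63, 2.76 and 3.46 CPM on HFD (-2.07 ± 0.49, adjusted p = 0.0301). In both genes every HFD library was now below every RD library, the opposite of the order at 2 weeks. The differences between the responses were 5.67 ± 0.84 for Dio2 and 4.71 ± 0.69 for Ppargc1a (adjusted p = 0.00956 for both), and without HFD female 1 the adjusted p were 0.0175 and 0.0121. Insig1 at 12 weeks was at 213, 237 and 159.6 CPM on RD and at 237, 533 and 356 CPM on HFD (0.88 ± 0.29, adjusted p = 0.136). Its response differed by -2.70 ± 0.41 (adjusted p = 0.00956). Dusp8 at 12 weeks was at 15.5, 10.3 and 12.6 CPM on RD and at 12.4, 10.4 and 10.3 CPM on HFD, so that all 12-week values lay above the 2-week RD values, and its response differed by 2.16 ± 0.35 (adjusted p = 0.0125). The Dusp8 difference missed the threshold without HFD female 6 or 7 or RD female 5 of the 12-week cohort, or RD female 2 of the 2-week cohort (adjusted p from 0.0516 to 0.0619).

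Mest at 12 weeks was at 12.8, 24.3 and 15.7 CPM on RD and at 1121, 871 and 969.9 CPM on HFD (5.81 ± 0.54, adjusted p = 2.81e-05). Sfrp5 was at 2.05, 3.56 and 5.94 CPM on RD and at 241, 121 and 361 CPM on HFD (5.96 ± 0.59, adjusted p = 2.83e-05). The 12-week HFD values were far above all 2-week values of both genes. Their responses at 2 weeks were smaller, with log2 differences of -3.92 ± 0.64 and -4.60 ± 0.72 (adjusted p = 0.0143 and 0.0103). The Mest difference missed the threshold without RD female 5 or 8 of the 12-week cohort or HFD female 5 of the 2-week cohort (adjusted p from 0.0595 to 0.0837), and the Sfrp5 difference without RD female 5 of the 12-week cohort (adjusted p = 0.0517). Of the 8 expansion genes 5 rose at 12 weeks (1.3% of tested genes), with a median log2 fold change of 2.67. Of the 26 fatty acid and triglyceride synthesis genes 4 fell at 12 weeks (0.775%), with a median of -1.09, and none of the 25 cholesterol synthesis genes did, with a median of -0.29. The differences of these list medians between 2 and 12 weeks were not tested.

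**Figure D5:**
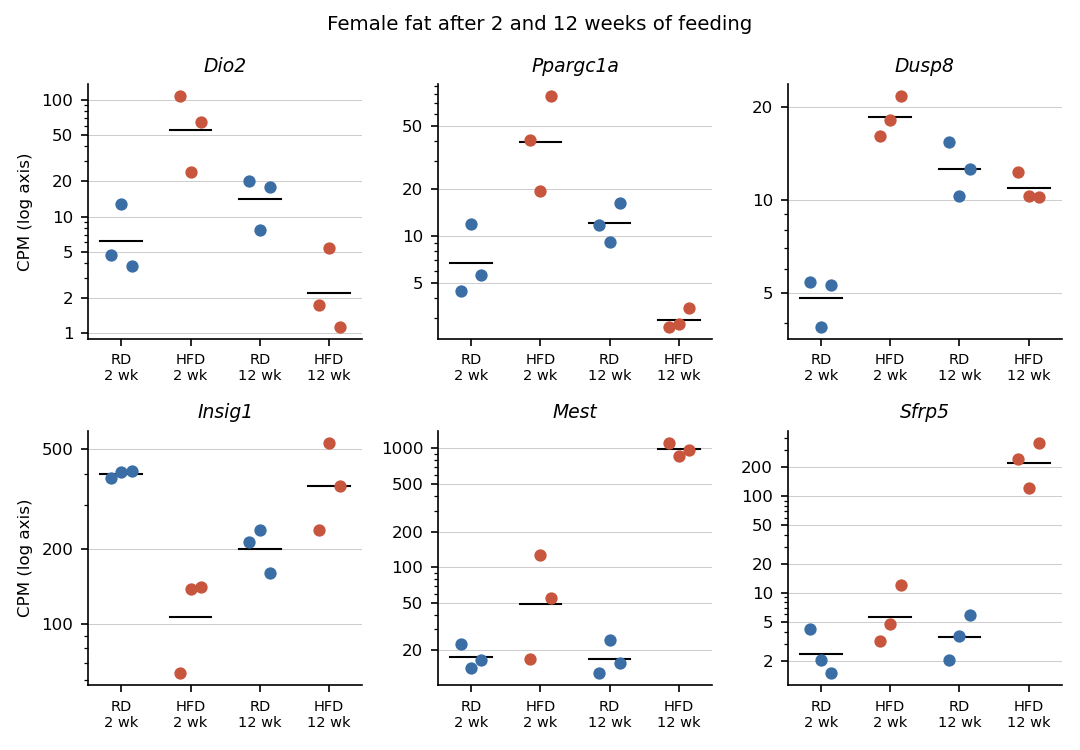
CPM (log axis) of 6 genes whose diet response differed between 2 and 12 weeks, in the 3 females of each diet at each time, with the geometric mean as a line. Dio2 and Ppargc1a are higher on HFD at 2 weeks and lower at 12 weeks, Insig1 is lower on HFD at 2 weeks, Dusp8 is lowest on RD at 2 weeks, and Mest and Sfrp5 are far higher on HFD at 12 weeks.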

How the data were processed

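The values are expected counts, 1 row per gene symbol, as the authors deposited them. Among the tools, kallisto, DESeq2 and edgeR are named in the submitters' processing notes, with GRCm38 as the build. How transcripts were summed to genes was not given in the sources used here. Expected counts were rounded to whole numbers, and 0 columns of per-sample values were left unused. Groups came from the sample names.

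The main test was edgeR 4.0.16 (R 4.3.3), with filterByExpr, TMM scaling and a robust quasi-likelihood fit over the 24 visceral fat libraries in 8 groups, from which contrasts for diet in 2-week females, for its difference from males and for its difference from 12-week females were taken. CPM use TMM-adjusted library sizes. DESeq2 1.42.0, limma 3.58.1 (voom with library quality weights), other scaling, no filter, fewer libraries and single omissions were alternatives. On simulated counts with 200 changed genes among 18040, this diet contrast recovered 6%, 28%, 74% and 92% of genes changed 1.5-, 2-, 4- and 8-fold, and 3.85% of 104 calls were false. The simulation drew each gene independently and held no library that stood apart as HFD female 1 does, so these rates may not hold for the data.

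Named genes are the 10 with the largest rise and the 10 with the largest fall among those called, with a mean log2 CPM of at least 1, no overlap between diets and no clone or predicted-gene name, up to 5 each way without HFD female 1, up to 3 each way for each interaction, up to 4 called members of each list, and defining markers. Any other gene named in the text was chosen after its values were seen. The 41 gene lists (593 symbols, 592 found) and the members were chosen with earlier results of these data known. Gene positions are from GENCODE M21, in which 93.8% of symbols had 1 position, and promoters from RefSeq GRCm38.p6. No pair of the 6 libraries agreed within counting noise. Some genes of the lists are not reported here.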

Additional observations from a re-analysis of the deposited data

Results flagged for a closer look

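In 6 genes of female visceral fat the difference between the diet responses at 2 and 12 weeks passed edgeR's test of that difference. The log2 fold change (HFD against RD) at 2 weeks minus that at 12 weeks was 5.67 for Dio2, 4.71 for Ppargc1a and 2.16 for Dusp8, and it was -2.70 for Insig1, -3.92 for Mest and -4.60 for Sfrp5. Without HFD female 1 of the 2-week cohort the 6 adjusted p lay between 0.00418 and 0.0272. In a fit of the 12 female libraries alone none of the 6 passed. Time on the diet, age and cohort cannot be told apart here, and their parts in these differences were not tested. The part of ovary and pancreas transcripts, whose marker lists differed between the diets at 12 weeks, was not tested either.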

How the results depend on the processing

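The count of genes that differed between the diets (43) was 1510 with DESeq2 (39 shared), 1010 with limma voom and library weights (38 shared), 12 without a filter on low counts, 0 with the 6 libraries alone and 7 with the 12 female libraries alone. Leaving out 1 library gave between 3 and 1212 calls: 3 without RD female 2 or 4, 14 without RD female 1, 11, 1212 and 617 without HFD female 1, 2 and 5. It was 64 with median-of-ratios size factors, 56 without robust estimation and 37 (32 higher and 5 lower, 12 shared) with female libraries alone and without HFD female 1. For the sex difference (0 calls) DESeq2 gave 84 and limma voom 1, and every omission gave 0. For the difference between weeks (13 calls) DESeq2 gave 328, limma voom 95, the 12 female libraries alone 0, and these without HFD female 1 also 0 (1625 at an unadjusted p under 0.05). Omissions gave 7 (without RD female 5 of 12 weeks) to 79 (without HFD female 2 of 2 weeks). The fits of female libraries alone and the voom fit were chosen after the data were seen.

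Fitted with the replicate number as a block, 96 genes were called (25 higher and 71 lower), 40 of them shared. Whether equal numbers mark a shared cage or batch was not given in the sources used here, and the libraries were treated as unpaired. Deviations of same-numbered libraries correlated at 0.119 for number 1 and -0.0999 for number 2, and HFD female 5 correlated best with RD female 4 at 0.265. No named value changed sign under any of these alternatives. For the called genes, whose diets did not overlap, leaving out 1 library could hardly change it. With 3 libraries a group, the simulated test recovered 28% of 2-fold changes, so that missed calls of this size say little. Whether the differences in the number of calls come from HFD female 1 was not tested beyond the omissions given.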

Other observations

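Genes of antioxidant defence and of the circadian clock were not called. Of 19 tested NRF2 and glutathione genes none passed, the median log2 fold change was -0.44 with all libraries and -0.21 without HFD female 1, and in 7 all HFD values were below all RD values, against 12.5% of tested genes. Gsta3, a glutathione transferase, was at 261, 229 and 181 CPM in RD females 1, 2 and 4 and at 37.7, 122 and 113 CPM in HFD females 1, 2 and 5 (-1.30 ± 0.34, adjusted p = 0.0829; -0.93 ± 0.28, adjusted p = 0.332 without HFD female 1). The 18 clock genes had a median of 0.07, and 0.08 without HFD female 1.

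All 5 erythroid genes were higher in HFD females 2 and 5 than in any RD female, against 16.3% of tested genes, and none was higher in all 3, with a median log2 fold change of 0.80 with all libraries and 1.20 without HFD female 1. The haem synthesis enzyme Alas2 was at 9.59, 11.7 and 7.99 CPM on RD and at 7.32, 19.2 and 38.9 CPM on HFD (1.16 ± 0.44, adjusted p = 0.146; 1.57 ± 0.38, adjusted p = 0.170 without HFD female 1). Of 22 cell cycle genes, 4 were higher in all HFD than in all RD libraries, against 9.63% of tested genes, and 4 in HFD females 2 and 5, against 16.3%. Their median was 0.64 with all libraries and 0.46 without HFD female 1. Mki67, a marker of dividing cells, was at 7.60, 6.34 and 7.74 CPM on RD and at 24.3, 25.9 and 9.74 CPM on HFD (1.47 ± 0.56, adjusted p = 0.145; 1.29 ± 0.61, adjusted p = 0.582 without HFD female 1).

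Clca3 and Prap1, the genes highest in HFD female 1 relative to RD, were also low but above RD in the other HFD libraries. Prap1 was at 0.0346, 0.0201 and 0.0165 CPM on RD and at 0.939 and 0.567 CPM in HFD females 2 and 5. With female libraries alone and HFD female 1 left out, the adjusted p was 0.041 for Clca3 and 0.0808 for Prap1. How these low counts arose was not tested.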
